A study of Rattus norvegicus with 8 samples.

Results

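The hypoxia sensing and VEGF genes described here are 10 genes of oxygen sensing and of vascular endothelial growth factor (VEGF) signalling: Hif1a, Epas1, Egln1, Egln3, Vegfa, Vegfb, Kdr, Flt1, Adm and Epo. They were taken by their symbols from the probe annotation, which placed 55 of the 45220 spots of the array in these 10 genes. The tested cells were rat retinal ganglion cells (RGCs), which carry visual signals through the optic nerve to the brain. They were purified from eyes under chronic ocular hypertension (COH), in which the pressure inside the eye stays raised, as in glaucoma. Their controls were RGCs purified from the normotensive fellow eyes of the same animals, pooled into groups numbered 1 to 4, so that there were 4 COH and 4 control samples in 4 pairs. Each sample was amplified, labelled with Cy5 and hybridised to its own 2-colour array with a Cy3-labelled rat reference RNA. A value is therefore the log2 of the RGC signal over the reference signal at 1 spot, and a level of 0 means equal to the reference. No allele, transgene or drug is named in the labels. The sources used here do not give the strain, the age, the way the pressure was raised or the number of animals per pool.

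Cells sense oxygen through prolyl hydroxylases of the Egln family, which mark the alpha subunits of the hypoxia-inducible factors (HIFs) for destruction while oxygen is present. When oxygen falls, the HIF alpha subunits accumulate and switch on genes for blood vessel growth, glycolysis and oxygen delivery, among them Vegfa, Adm, Epo and Egln3 itself. HIF alpha is controlled mainly at the level of the protein, which these arrays do not measure. In the retina VEGF is made largely by glia and acts through Kdr and Flt1 on vessels and also on neurons.

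No gene of the array passed the adjusted threshold. The limma fit with the pair as a block, adjusted by Benjamini-Hochberg over 18595 items (9792 named genes and 8803 unnamed spots), gave 0 items (0%) at an adjusted p under 0.05, and 880 at an unadjusted p under 0.05. By the study's own rule, an unadjusted p under 0.05 with at least a 1.5-fold difference, the same 880 items (4.73%) were called, 2.57% as higher and 2.17% as lower in COH cells, and 0 of the 7 hypoxia sensing and VEGF genes that could be tested. These 7 were Hif1a, Egln3, Vegfa, Vegfb, Kdr, Flt1 and Adm, each with at least 1 spot measured on all 8 arrays. Epas1, Egln1 and Epo had no such spot. The median difference of the 7 genes was 0.15 log2 units, beside 0.08 over all items. Without pair 3 both medians were just below 0, at -0.024 for the 7 genes and -0.025 over all items. The 95% intervals of Egln3 and Adm lay within 1 log2 unit of 0, and those of the other 5 genes reached beyond it, to -1.24 at the lowest and 1.56 at the highest.

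**Figure D1:**
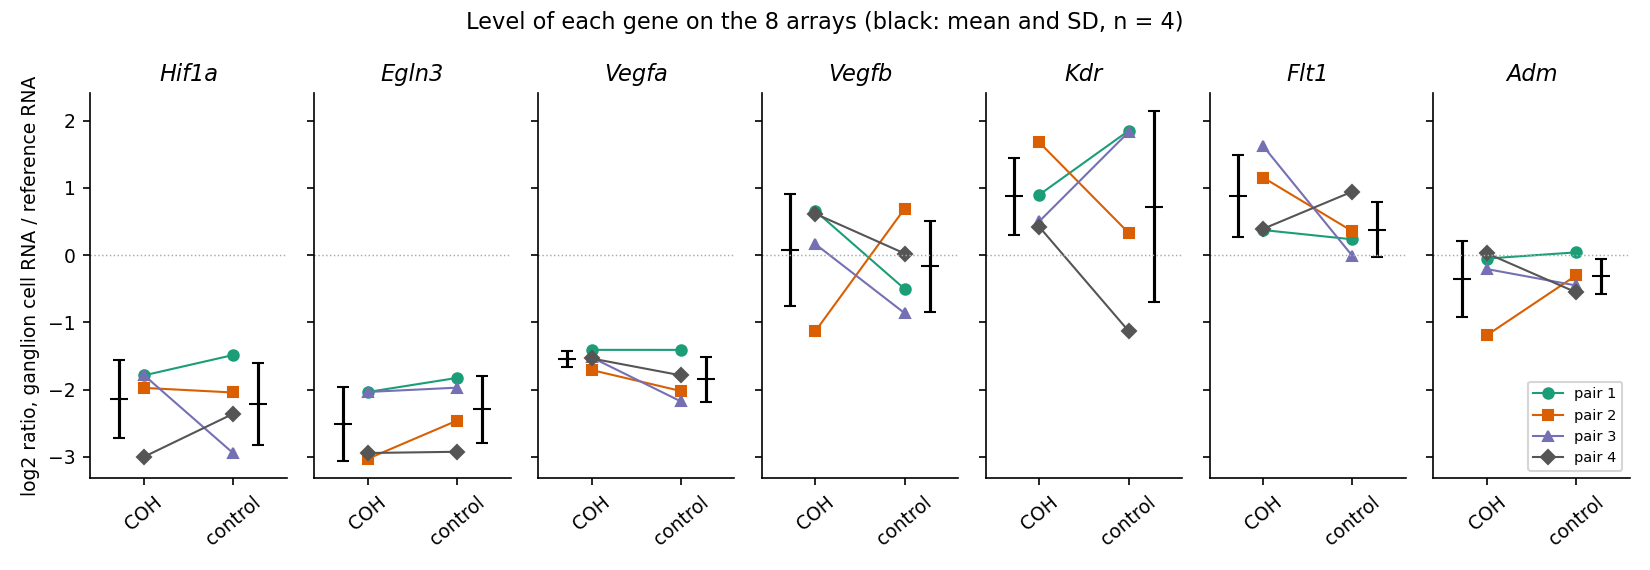
Log2 ratio of RGC over reference RNA (y axis) for the 7 genes measured on all 8 arrays, COH left and control right in each panel. Coloured markers joined by a line are the arrays of 1 pair and black bars the mean and SD (n = 4). The values of the groups overlap in each of the 7 panels, and Hif1a, Egln3 and Vegfa lie below the reference on all 8 arrays.

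Among the HIF alpha subunits, Hif1a, the broadly expressed one, was below the reference RNA on every array and was called neither higher nor lower in COH cells. As the mean of its 11 complete spots, Hif1a had log2 ratios of -1.79, -1.97, -1.78 and -3.00 in COH cells 1 to 4, against -1.49, -2.04, -2.94 and -2.36 in control cells 1 to 4. The lowest arrays were COH 4 and control 3, and the groups overlapped. COH cells averaged -2.14 ± 0.58 and control cells -2.21 ± 0.61 (SD, n = 4 each), a difference of 0.07 ± 0.40 (SE) with a 95% interval from -0.89 to 1.03 and a limma adjusted p of 0.985. It was higher in 2 of 4 pairs, with pair differences of -0.30, 0.07, 1.16 and -0.64, and without pair 3 the difference was -0.29.

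Hif1a was printed on the array many times. All 11 complete spots carried values that no more than 2 spots of an array shared exactly. Values shared by 3 or more spots were taken as a sign of low signal and made up 50.9% to 59.5% of each array. Of the 11 spots, 10 had means over the 8 arrays between -2.92 and -1.80, while the remaining one, annotated to the same transcript, had a mean of 0.19. The probe sequences were not used here, so which of these levels represents the transcript was not tested. The difference between COH and control cells was above 0 at 7 spots and below 0 at 4, and it ranged from -0.57 to 0.52 over the spots. On the COH 4 array the 11 spots had an SD of 1.45, against 0.69 to 1.14 on the other arrays, with values from -5.46 to -0.24. A further spot, from an expressed sequence tag, had values on 6 arrays, all of them shared with other spots.

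The promoter of Hif1a is shown because it was the only one of the 10 genes whose 250 bases before the transcription start held ACGTG, the core of the hypoxia response element to which HIF binds. The sequence is the plus strand of chr6:98359648-98359897 (RefSeq, GRCr8), 5′ to 3′, with each ACGTG on either strand in capitals.
Hif1a promoter: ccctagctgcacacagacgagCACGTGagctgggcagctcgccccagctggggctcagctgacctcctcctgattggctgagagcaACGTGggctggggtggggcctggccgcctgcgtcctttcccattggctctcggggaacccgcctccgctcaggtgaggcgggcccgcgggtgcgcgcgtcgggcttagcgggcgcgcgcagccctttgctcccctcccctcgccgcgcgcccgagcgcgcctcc
The first match, CACGTG, begins 229 bases before the start and reads the same on both strands, so that it counts as 2 overlapping matches. The second begins 164 bases before the start. ACGTG on either strand was found in 16.6% of the 33469 promoter windows of this length. A GCGTG, the other usual form of the core, was present in 5 of the 10 genes (Egln1, Epo, Flt1, Kdr and Vegfb) and in 25.9% of all windows. These matches describe the letters only.

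Epas1, which encodes the HIF-2 alpha subunit that is abundant in endothelium, was measured too sparsely to compare. Its 2 spots gave 7 of 16 possible values, 6 of them shared with other spots. The transcript spot had log2 ratios of 0.20 and -0.01 on the COH 2 and COH 4 arrays, against 2.12, -0.02, 1.27 and 0.50 on the 4 control arrays. It thus had no value on COH 1 and COH 3, and the values of both groups overlap.

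The prolyl hydroxylases showed no difference past either threshold. Egln3, a hydroxylase that hypoxia induces strongly in many cells, had log2 ratios of -2.04, -3.03, -2.03 and -2.94 in COH cells 1 to 4, against -1.83, -2.46, -1.97 and -2.92 in control cells 1 to 4. Its COH value was below its control value in 4 of 4 pairs, which was so for 4.66% of all items, while the groups as wholes overlapped. The mean difference was -0.21 ± 0.32 (SE), or 0.862-fold, with a 95% interval from -0.98 to 0.55 and a limma adjusted p of 0.954. Pairs 3 and 4 contributed -0.06 and -0.02. The values of its single spot were distinct on all 8 arrays.

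Egln1, the hydroxylase that sets HIF levels in most tissues, was measured by 1 spot on 7 arrays. It had log2 ratios of 1.75, 0.36, 2.64 and 2.99 in COH cells 1 to 4, against 2.68, 1.74 and 1.65 in control cells 2 to 4. Every value was above the reference, and the lowest was that of COH 2. In a limma fit of all 23339 items with at least 3 complete pairs, in which 5.1% met the study's rule, Egln1 differed by -0.03 ± 0.79 (SE), with a 95% interval from -1.97 to 1.92 and an adjusted p of 0.996. The interval is wide, the 3 pairs disagreed in sign, and without pair 2 the difference was 1.12. Of its 7 values, 3 were shared with other spots.

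**Figure D2:**
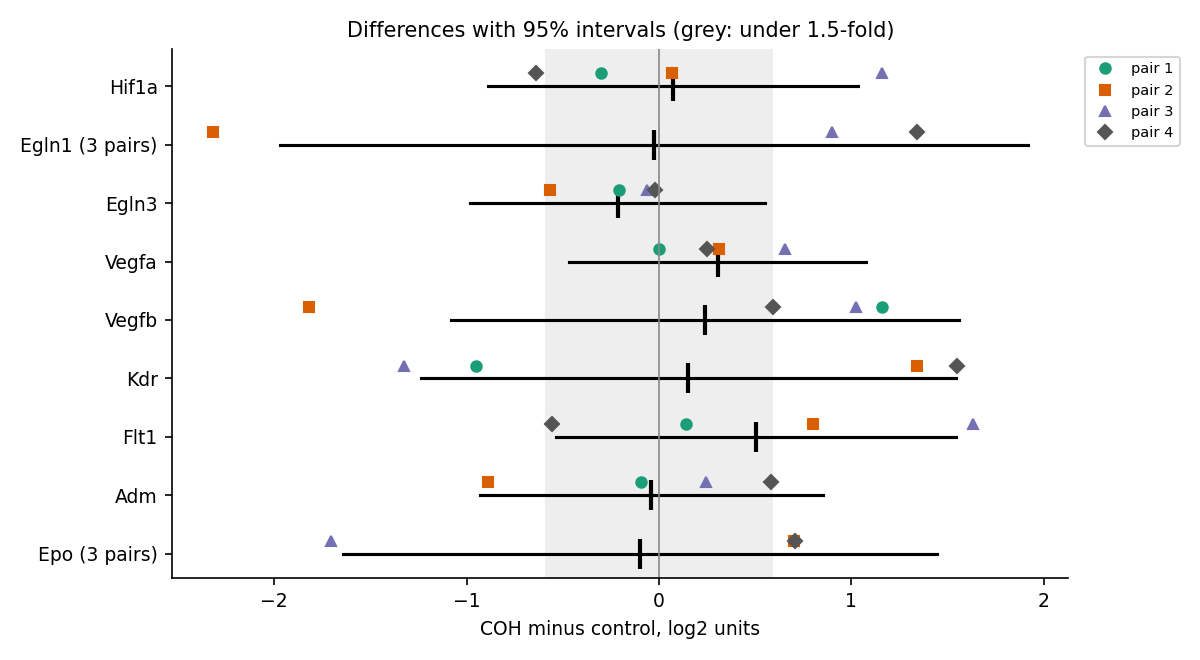
COH minus control in log2 units (x axis) for the 9 genes that could be fitted. Black lines are 95% limma intervals with the estimate as a tick, coloured markers above them the single pairs, and the grey band differences under 1.5-fold. All 9 intervals include 0, and Egln3 and Vegfa are the genes whose 4 pairs lie on 1 side.

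Vegfa, the ligand that HIF induces to promote vessel growth and permeability, was below the reference on every array as a gene mean and had a small positive difference in COH cells that met neither threshold. The mean of its 8 complete spots was -1.41, -1.71, -1.52 and -1.54 in COH cells 1 to 4, against -1.41, -2.02, -2.17 and -1.79 in control cells 1 to 4. The COH arrays lay close together and the control arrays spread more, but the groups overlapped at pair 1, whose values differed by 0.0002. COH cells averaged -1.54 ± 0.12 and control cells -1.85 ± 0.33 (SD, n = 4 each). The difference was 0.30 ± 0.32 (SE), with a 95% interval from -0.47 to 1.07 and a limma adjusted p of 0.934. It was above 0 in 4 of 4 pairs, as it was for 8.38% of all items, with pair differences of 0.0002, 0.31, 0.65 and 0.25 (SD 0.27).

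This small difference was not shared by all Vegfa spots. Of the 8 complete spots, 5 were higher and 3 lower in COH cells, and the spot differences ranged from -0.78 to 1.04. The spot with the smallest p had the difference of -0.78 (limma adjusted p 0.896), opposite in sign to the gene mean. With the 2 spots that had 3 complete pairs included, at -1.50 and -0.75, the gene difference was 0.07. In level, 7 of the 8 spots had means between -3.00 and -1.76, while the last, annotated to the same transcript, had a mean of 2.33. Of the 86 values that the 12 Vegfa spots carried, 65.1% were shared with other spots, and none of the 8 complete spots was free of shared values. Vegfa is known to produce several splice forms, and which of them each spot detects was not tested.

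**Figure D3:**
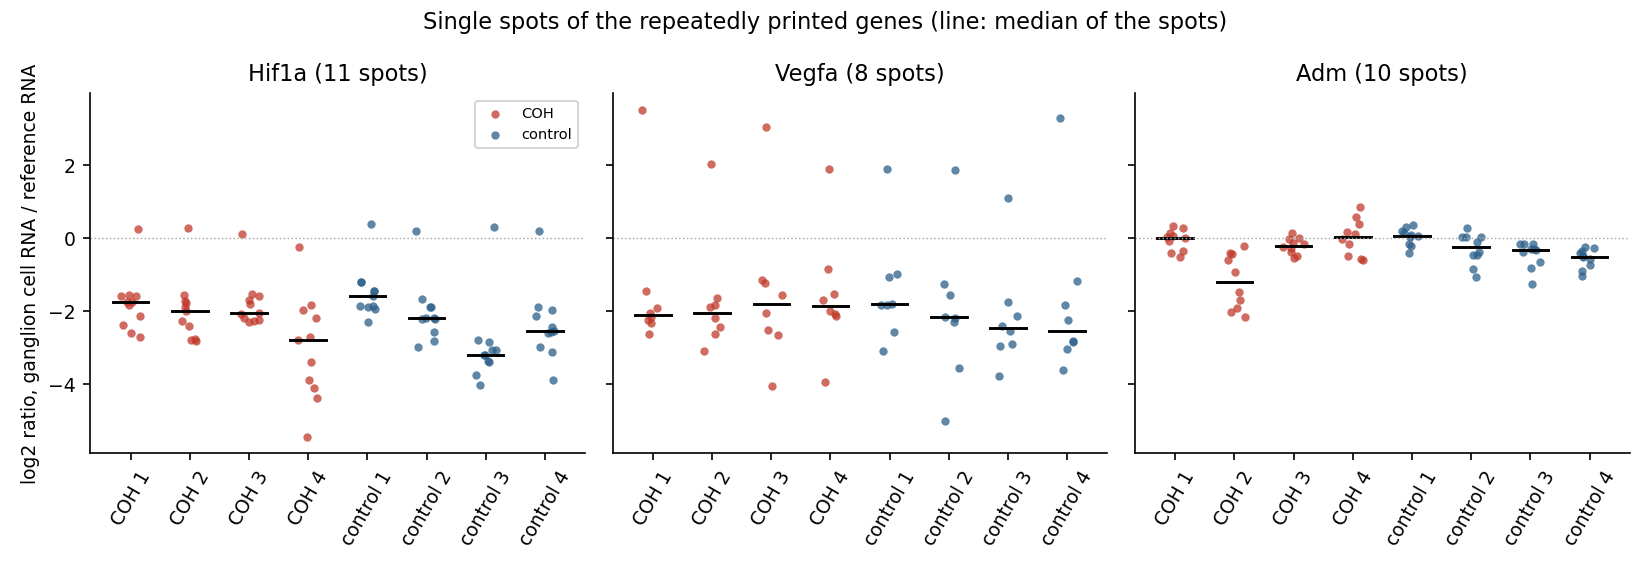
Log2 ratio of RGC over reference RNA (y axis) of every complete spot of Hif1a (11), Vegfa (8) and Adm (10) on the 4 COH arrays (red) and the 4 control arrays (blue), with the median as a black line. One Hif1a spot and 1 Vegfa spot stand above the others on all arrays. The Hif1a spots scatter most on COH 4, and the Adm spots are lowest on COH 2.

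Vegfb, a relative of Vegfa that supports neurons and heart muscle more than vessel growth, lay near the reference. It had log2 ratios of 0.66, -1.13, 0.16 and 0.61 in COH cells 1 to 4, against -0.50, 0.69, -0.86 and 0.02 in control cells 1 to 4. Pair 2 ran against the other 3 pairs, which were higher in COH cells. The difference was 0.24 ± 0.56 (SE), with a 95% interval from -1.08 to 1.56 and a limma adjusted p of 0.970. Without pair 2 it was 0.93, at an adjusted p of 0.877. Its 2 spots differed in level by about 1 log2 unit, with means of 0.46 and -0.55, and had like differences of 0.25 and 0.22.

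Of the VEGF receptors, Kdr is the main signalling receptor of endothelium and Flt1 a receptor that binds VEGF tightly and limits its action. Kdr had log2 ratios of 0.90, 1.68, 0.50 and 0.42 in COH cells 1 to 4, against 1.85, 0.33, 1.83 and -1.13 in control cells 1 to 4. The control values spanned the COH values, and the pairs split 2 against 2. Its difference was 0.15 ± 0.59 (SE), with a 95% interval from -1.24 to 1.55 and a limma adjusted p of 0.980.

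Flt1 had the largest estimate among the 7 genes, still within the spread between pairs. Its gene mean was 0.37, 1.15, 1.62 and 0.39 in COH cells 1 to 4, against 0.23, 0.35, -0.01 and 0.94 in control cells 1 to 4. COH 2 and COH 3 were above every control array, and pair 4 ran the other way. The difference was 0.50 ± 0.44 (SE), 1.42-fold, with a 95% interval from -0.54 to 1.55 and a limma adjusted p of 0.929. It was 0.13 without pair 3. Its 2 complete spots had differences of 0.57 and 0.44 and mean levels of 1.47 and -0.21, and its other 2 spots had values on 5 arrays each, all shared.

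Markers of vessel cells were looked at beside the receptors, since RNA of such cells would carry Kdr, Flt1 and Epas1. Of 23 endothelial and pericyte genes, 11 were measured on all arrays. Their median level per array was between 0.40 and 1.17 in COH cells, against 0.33 to 1.26 in control cells, and 6 were above the reference on all 4 COH arrays, against 8 on all 4 control arrays. Of the 11, 5 had a difference above 0 and 6 one below, with a median of -0.08. The study's rule was met by 1 of the 11, Abcc9 (1.20), a channel subunit of pericytes, and by 4.73% of all items. In 4 of 4 pairs, 3 were higher in COH cells (Abcc9, Robo4 at 0.87 and Anpep at 0.56), beside 8.38% of all items. In 4 of 4 pairs, 1 was lower (Sox18 at -0.85), beside 4.66% of all items. Cdh5, the cadherin of endothelial junctions, differed by -0.43 and was lower in 3 of 4 pairs. These 5 genes were named after their values were seen. Sox17 had only shared values, the sign of low signal, on all 8 arrays, Des on 7 and Sox18 on 5. Sox17 and Sox18 are among the genes above the reference on all 4 control arrays. Sox17 and Des were likewise named after their values were seen. Pecam1, Vwf and Cldn5 lacked a complete spot. The part of vessel cells in the receptor values was not tested. In such purified pools, fewer cells of a type and less RNA per cell cannot be told apart.

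The secreted hypoxia products, Adm and Epo, likewise gave no call. Adm, the vasodilator peptide adrenomedullin, had a gene mean over 10 spots of -0.05, -1.19, -0.21 and 0.03 in COH cells 1 to 4, against 0.04, -0.30, -0.45 and -0.55 in control cells 1 to 4. COH 2 was lowest and the other 7 arrays lay between -0.55 and 0.04. The difference was -0.04 ± 0.37 (SE), with a 95% interval from -0.93 to 0.85 and a limma adjusted p of 0.992, and it was 0.24 without pair 2. All 10 Adm spots were complete and distinct, and their differences, 4 above and 6 below 0, kept within -0.24 and 0.23. On COH 2 the spots ranged from -2.17 to -0.21.

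Epo, the hormone erythropoietin that drives red cell formation and protects retinal neurons in experimental models, was at the edge of measurement. Its 10 spots carried 28 of 40 possible values in COH cells and 26 of 40 in control cells, and 87.0% of these were shared with other spots. The number of spots with a value ran from 6 to 8 on the COH arrays and from 2 to 10 on the control arrays. In the fit of items with at least 3 complete pairs Epo rested on 3 spots. Their mean differed by 0.70, -1.70 and 0.70 in pairs 2 to 4, and the single spots by -1.44, 0.66 and 0.48. The Epo spots with only 1 or 2 complete pairs, outside this fit, all had differences below 0, from -2.92 to -0.29. The fitted difference was -0.10 ± 0.63 (SE), with a 95% interval from -1.64 to 1.44 and an adjusted p of 0.985, and it was 0.70 without pair 3.

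Further genes of the pathway were read from 3 lists. In the list of oxygen-sensing machinery (other HIF subunits and hydroxylases, the VHL ubiquitin ligase, coactivators and the receptors of Epo and Adm) 19 of 21 genes were measured. None of the 19 met the study's rule, 16 had a difference above 0 and 3 one below, and the median was 0.27, beside 56.2% of all items above 0 and their median of 0.08. Without pair 3, 12 of the 19 were above 0 and the median was 0.10, beside -0.025 over all items. The 3 of smallest p were Siah1, a ubiquitin ligase of a family that targets Egln hydroxylases, Ramp2, a subunit of the adrenomedullin receptor, and Epor, the erythropoietin receptor. Siah1 had log2 ratios of -2.61, -3.97, -3.40 and -2.58 in COH cells 1 to 4, against -2.51, -5.07, -4.53 and -3.69 in control cells 1 to 4. It was higher in 3 of 4 pairs, by 0.81 ± 0.37 (SE), with a limma adjusted p of 0.915. Ramp2 differed by 0.62 ± 0.44 (SE) and Epor by 0.72 ± 0.56 (SE), each higher in 3 of 4 pairs. Without pair 1, Siah1 (1.11) and Ramp2 (1.09), 2 of the 19 genes, met the study's rule at a limma adjusted p of 0.778, where 5.8% of all items did.

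**Figure D4:**
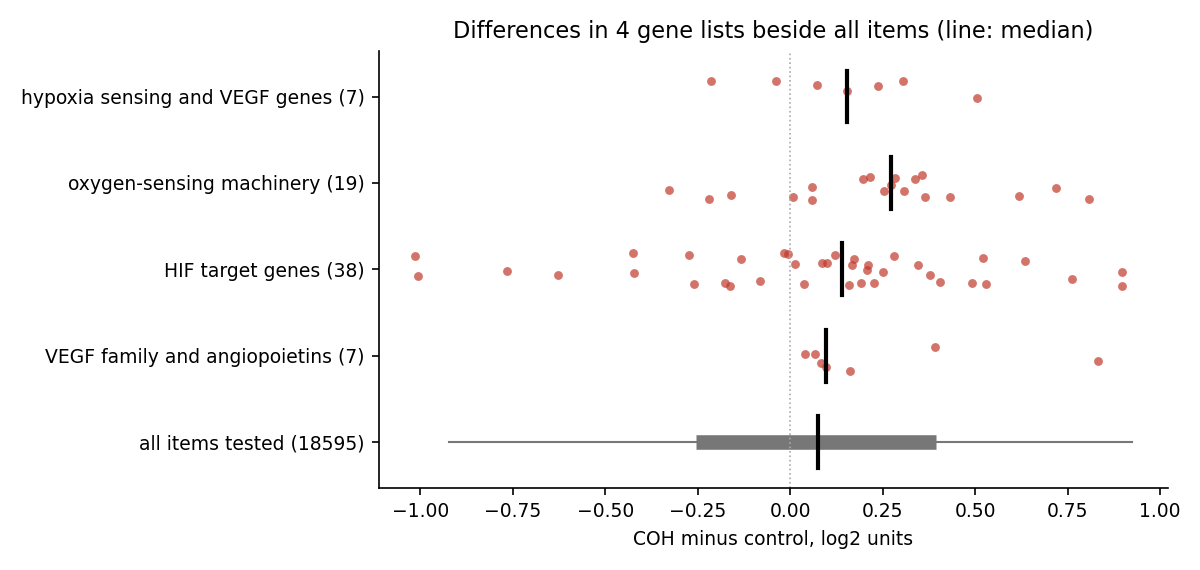
COH minus control in log2 units (x axis) for the genes of 4 lists (red points, with the number measured in brackets). The lowest row gives all items, with a thick bar from the 25th to the 75th percentile and a thin one from the 5th to the 95th; black lines are medians. The medians of the 4 lists lie between 0.10 and 0.27, where that of all items is 0.08.

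Transcripts that HIF switches on in hypoxic cells had differences in both directions. Of 44 such genes, 38 were measured and 0 met the study's rule. Differences were above 0 for 24 and below 0 for 14, with a median of 0.14. Without pair 4 this median was 0.0049, beside 0.085 over all items. In 4 of 4 pairs, 4 genes were higher (Tpi1, Bnip3, Cited2 and Ldha) and 4 lower (Gapdh, Mxi1, Bnip3l and Ero1a), where 13% of all items had the same direction in 4 of 4 pairs. Glycolysis was among both: Tpi1, triosephosphate isomerase, differed by 0.76 ± 0.39 (SE) and Gapdh, the next enzyme of the pathway, by -0.77 ± 0.41 (SE), each with a limma adjusted p of 0.915. Gapdh had log2 ratios of -1.93, -1.53, -2.08 and -2.92 in COH cells 1 to 4, against -1.83, -1.48, -0.44 and -1.65 in control cells 1 to 4. Its difference came mainly from pairs 3 and 4, at -1.64 and -1.27. Ldha, lactate dehydrogenase, had small differences of 0.04, 0.06, 0.30 and 0.36 in pairs 1 to 4. Mxi1 had only shared values on 7 arrays, and its difference of -1.01 came mainly from pair 3, at -3.17. Tested spot by spot, 5 of the 112 complete spots of the target genes (4.46%) met the study's rule, beside 4.83% of all spots. They were 2 of 11 Gapdh spots, 1 of 10 Hmox1 spots, 1 of 3 Cited2 spots and 1 of 3 Ndrg1 spots, Hmox1 and Ndrg1 being named after their values were seen.

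In 2 of the 38 target genes, Bnip3 and Cited2, the COH and control values did not overlap, as in 2.52% of all items. Cited2 and the other genes named for 4 of 4 pairs, apart from Tpi1, Bnip3 and Gapdh, were chosen after their values were seen. Bnip3, a mitochondrial protein of mitophagy and cell death, had log2 ratios of -0.55, 0.80, -0.69 and -0.34 in COH cells 1 to 4, against -0.71, -1.73, -1.03 and -0.90 in control cells 1 to 4. Pair 2 differed by 2.53 and the other pairs by 0.15, 0.34 and 0.56. The difference was 0.90 ± 0.48 (SE), with a 95% interval from -0.24 to 2.04 and a limma adjusted p of 0.915. Cited2, a protein that competes with HIF for its coactivator, had -0.75, -0.42, -0.33 and -0.52 in COH cells 1 to 4, against -0.84, -1.14, -1.08 and -1.03 in control cells 1 to 4. It differed by 0.52 ± 0.33 (SE), with a 95% interval from -0.26 to 1.30 and an adjusted p of 0.915.

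The promoters of Bnip3 and Cited2 are shown because these are the target genes whose groups did not overlap. Both hold 1 CACGTG, in capitals, in the 250 bases before the start, which begins 99 bases before it in Bnip3 and 160 in Cited2. The Bnip3 stretch is the minus strand of chr1:203154963-203155212 and the Cited2 stretch the plus strand of chr1:14132053-14132302 (RefSeq, GRCr8), both 5′ to 3′.
Bnip3 promoter: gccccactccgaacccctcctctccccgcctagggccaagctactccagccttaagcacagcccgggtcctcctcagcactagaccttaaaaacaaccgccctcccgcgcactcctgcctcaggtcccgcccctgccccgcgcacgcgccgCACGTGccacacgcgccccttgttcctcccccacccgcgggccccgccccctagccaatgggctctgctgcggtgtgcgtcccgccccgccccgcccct
Cited2 promoter: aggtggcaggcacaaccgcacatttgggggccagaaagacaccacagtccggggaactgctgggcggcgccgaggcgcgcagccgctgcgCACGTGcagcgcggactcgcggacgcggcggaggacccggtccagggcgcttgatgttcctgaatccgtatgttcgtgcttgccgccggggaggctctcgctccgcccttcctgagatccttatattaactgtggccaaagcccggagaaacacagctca
Of the 34 target genes with a promoter in the table, 19 held ACGTG on either strand. The 18 measured genes with it had a median difference of 0.16 and the 13 measured genes without it one of 0.23. GCGTG, the other form of the core, was present in 21 of the 34, among them genes without ACGTG. The medians therefore do not compare genes with a core against genes without one. The list was drawn up from known HIF targets, so its share of matches is no result of these arrays.

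In the list of other VEGF family members, co-receptors and angiopoietins, 7 of 17 genes were measured and none met the study's rule. All 7 had a difference above 0, beside 56.2% of all items, with a median of 0.10. However, 5 of 7 did under quantile normalization (not Angpt1 and Angpt2) and 5 to 7 of 7 with 1 pair left out. With at least 3 complete pairs required, 13 genes of the list were measured, 9 of them above 0 and 4 below. The genes of smallest p were Pdgfrb, the pericyte receptor for platelet-derived growth factor, Vegfc, a ligand of lymphatic vessels, and Nrp1, a co-receptor for VEGF and semaphorins. Pdgfrb had log2 ratios of -1.14, -2.38, -1.26 and -0.44 in COH cells 1 to 4, against -1.62, -1.70, -2.99 and -2.24 in control cells 1 to 4. It differed by 0.83 ± 0.50 (SE), was higher in 3 of 4 pairs and had a limma adjusted p of 0.915. Without pair 2 its difference of 1.34 met the study's rule at a limma adjusted p of 0.877, as the only one of the 7 genes, where 5.36% of all items met it. Vegfc differed by 0.39 ± 0.37 (SE) and Nrp1 by 0.16 ± 0.43 (SE). The angiopoietins Angpt1 and Angpt2 were below the reference on all 8 arrays, with differences of 0.08 and 0.07; they were named after their values were seen.

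Across the 8 arrays, the genes most like Hif1a in their log ratios were Ccdc127 (Pearson r 0.991), Or10ak7e (0.983) and Klhdc3 (0.972), out of 9791 other genes, of which 104 had an r over 0.9. Each of these 3 genes was also lowest on COH 4 and control 3, as Hif1a was. Or10ak7e belongs to the olfactory receptor family, whose members resemble each other in sequence, so its spot is uncertain. The genes most like Vegfa were Brf2 (0.968), Tyw1 (0.951) and Pon2 (0.947), with 45 genes over 0.9. The points of such a correlation share their arrays, so it describes these arrays only. Among the 7 genes themselves, r ranged from -0.59 (Vegfb and Kdr) to 0.65 (Vegfb and Adm), and Hif1a and Vegfa had 0.53.

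The arrays and the cells set the frame for these values. Between 32101 and 42076 spots of an array carried a value. COH 4 had the lowest mean correlation with the other arrays over all items, 0.662 against 0.735 to 0.779, and its lowest single correlation was with control 3. Of 14 RGC markers 11 were measured, with array medians of 0.06 to 0.38 in COH and -0.14 to 0.57 in control cells; Pou4f2 had no complete spot. Array medians were -0.91 to -0.26 in COH and -0.74 to -0.10 in control cells for 7 Muller glia genes, the glia that make much of the retina's VEGF. For 4 astrocyte genes they were 0.40 to 0.46 in COH and 0.24 to 0.96 in control cells. For 6 microglial genes they were -0.21 to 0.71 in COH and 0.18 to 0.88 in control cells, and for 3 photoreceptor genes 1.42 to 3.23 in COH and 0.90 to 2.43 in control cells. Among the glial and microglial genes, Aqp4 had only shared values, the sign of low signal, on all 8 arrays. Gfap, S100b and P2ry12 had only shared values on 7 arrays each, Aif1 on 6 and Cx3cr1 on 4. These genes were named after their values were seen. Of the 42 measured markers of the 6 lists, vessel genes included, 4 (9.52%) met the study's rule, beside 4.73% of all items. They were Abcc9 (1.20) among the vessel genes, Thy1 (-1.28) among the RGC genes, Aldh1l1 (-0.92) among the astrocyte genes and Cx3cr1 (-2.05) among the microglial genes, named after their values were seen. Their part in the values above was not tested.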

How the data were processed

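The authors deposited a log2 ratio of RGC (Cy5) over rat reference RNA (Cy3) for each spot. Per the series' design text, they applied Lowess normalization globally and locally and kept spots that met Agilent's quality control. Scanner software: not given in the sources used here. That the logarithm has base 2 was inferred: 88 to 129 of the frequent values of an array have a partner exactly 2 higher (tolerance 2e-05), as ratios of small whole numbers give on a log2 scale. The direction rests on the dyes in the labels. The dye orientation was the same on all arrays, so dye bias is not removed from a level, but cancels in a difference as far as it is equal.

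Symbols came from the platform annotation, updated by gene identifier (25306 of 25353 spots with 1 symbol; 48 spots had several and 19819 none). The 22856 spots measured on all 8 arrays were averaged per gene, and unnamed spots were tested alone. The test was limma 3.58.1 (R 4.3.3), lmFit and eBayes, two-sided, with the pair as a block and Benjamini-Hochberg adjustment, tested on simulated data. The design text, with ratios taken between eyes of the same animals, and the numbers shared by the titles give the pairing. Deviations of same-numbered arrays correlated at 0.09, 0.02, 0.06 and 0.03, and those of differently numbered arrays at -0.19 to 0.09. These ranges overlap, so the correlations do not decide the pairing. The p-values measure the spread between pools, whose number limits the precision. The exact form of the authors' analysis of variance is not given, so their thresholds were applied to limma's p. Named genes were the 10 members, the 3 genes of smallest p in each pathway list, the 3 genes most like Hif1a and Vegfa, and exceptions marked in the text. The members and lists were chosen with earlier results of these data known. Alternatives covered scaling, the block, missing and zero values, single spots, medians of spots, low signals, position, the prior, a test of the 4 ratios and each pair left out.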

Additional observations from a re-analysis of the deposited data

Results flagged for a closer look

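Samples far from the other 3 of their group were looked for in 56 groups of 4 (gene levels, list medians and the spread of repeated spots), of which 2 held one; chance marks about 1 in 20 such groups. Hif1a on the COH 4 array, at -2.99862, lay apart from the other COH arrays (-1.97 to -1.78). Nrp1 on the COH 2 array, at -1.47193, lay apart from the other COH arrays (-0.39 to -0.22).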

How the results depend on the processing

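The count of 0 items past the adjusted threshold, and of 0 of the hypoxia sensing and VEGF genes meeting the study's rule, held under all 15 alternatives, with a smallest adjusted p of 0.617 among all items (values distinct on all arrays). The number of items meeting that rule was 566 in the test of the 4 within-pair ratios and 431 with distinct values only, a setting that tests 8278 items. With no replicate block it was 697, and with a pair left out 679 to 1079. The share of higher calls was 54.2%, but 40.9% without pair 3 and 83.1% with distinct values only.

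Signs of the single genes were not stable. Centring each array on its median gave 0.0204 for Adm and 0.0377 for Egln1, and quantile normalization -0.0341 for Hif1a, 0.102 for Egln1 and 0.00602 for Epo. With at least 3 complete pairs, Vegfa was at 0.0746, against 0.30. Of the single Vegfa spots, that of smallest p was at -0.78. With 1 pair left out, Hif1a ranged from -0.29 to 0.31, Vegfb from -0.0681 to 0.93, Kdr from -0.31 to 0.65, Adm from -0.25 to 0.24, Egln1 from -0.71 to 1.12 and Epo from -0.50 to 0.70. Egln3 stayed below 0 and Flt1 above 0 in each alternative that could be run. The cause of these reversals was not tested.

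With a pair left out, the rule was met by 0 to 2 of the 19 genes of the oxygen-sensing list (Ramp2 and Siah1 without pair 1). Of the 38 HIF targets, 0 to 1 met it (Ankrd37 without pair 1, Angptl4 without pair 2). Angptl4 had only shared values on 7 arrays. In the VEGF family list, 0 to 1 of 7 genes met the rule (Pdgfrb without pair 2). Of all items, 5.8% met the rule without pair 1 and 5.36% without pair 2. Tested spot by spot, 4 HIF targets had a spot that met it, 5 of 112 spots in all, beside 4.83% of all spots: Cited2 (1.09), Gapdh (-2.66 and -1.93), Hmox1 (-0.88) and Ndrg1 (-1.88). Genes outside the rule for naming were named here after their values were seen. Medians of spots, added after seeing the data, changed the sign of none of the 7 fully measured genes, with Hif1a at 0.22, and left 23 of 38 HIF targets above 0, against 24. Distinct values left Hif1a, Egln3 and Adm only. Signal intensities were not used, so the low-signal limit rests on shared values.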
